A study of Mus musculus with 23 samples.

Results

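Haem, the iron-porphyrin carried by cytochromes and other enzymes, is made, moved and broken down by separate sets of proteins, and 4 genes of that cycle are described here: Alas1, Slc48a1, Hmox1 and Blvrb. They were taken as every probe with one of those symbols, whatever its value on a given array, and each gene had 1 probe, so that 4 of the 24611 probes and 4 of the 15161 named genes of the array are covered. The genes had been selected on results of these arrays. Their higher levels under cystamine are taken to be among those results, so the cystamine values are a description with no test. Whether other comparisons also entered the choice is not known, so the p-values of the 4 genes may not be independent of it.

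The study asked what inhibitors of TG2, a transglutaminase that cross-links proteins, do to transcripts in mouse striatal cell lines, with Q111 standing for Huntington disease and Q7 as its control line, labelled WT. Each line was kept for 12 h with 50 µM ZDON, with 50 µM Boc-DON or with 250 µM cystamine, which gave 6 treated groups beside the Q111 and Q7 controls, whose vehicle and time the labels do not state. Every group had 3 arrays except Q7 with Boc-DON, which had 2 because the submitters' quality check had failed the third. Each of 3 Illumina BeadChips carried 1 array of each group, that failed one included, so that replicates with the same number share a chip, and nothing in the labels says that replicates were separate cultures. The p-values then measure the spread between these arrays, which may be technical. The labels do not say whether either line is 1 clone.

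As background, ALAS1 is the enzyme of the first and rate-limiting step of haem synthesis outside red cells, and haem itself lowers its production. SLC48A1, also called HRG1, carries haem out of endosomes and lysosomes. HMOX1 is the inducible haem oxygenase, which opens the haem ring and releases biliverdin, iron and carbon monoxide, and BLVRB is a reductase of biliverdin and flavins. Hmox1 is a textbook target of the transcription factor NRF2 (gene Nfe2l2), which binds antioxidant response elements, and of the haem-binding repressor BACH1 at the same elements. Alas1 transcription is driven in liver by the coactivator PGC-1α (gene Ppargc1a) and is known, from the rat gene, to use sites for nuclear respiratory factor 1.

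In the mouse assembly GRCm38.p6 the annotation places Alas1 on chr9:106233455-106247954, Slc48a1 on chr15:97784365-97792692, Hmox1 on chr8:75093618-75100593 and Blvrb on chr7:27447978-27465981. Promoter windows of RefSeq, from 250 bases before to 50 bases after a transcription start, were at hand for 2 of the 4 genes, Alas1 and Blvrb. Each had 2 windows, and the first by genomic coordinate is shown. The Alas1 window, chr9:106247681-106247980 on the minus strand, and the Blvrb window, chr7:27447728-27448027 on the plus strand, read 5′ to 3′ with motif matches in capitals.
Alas1: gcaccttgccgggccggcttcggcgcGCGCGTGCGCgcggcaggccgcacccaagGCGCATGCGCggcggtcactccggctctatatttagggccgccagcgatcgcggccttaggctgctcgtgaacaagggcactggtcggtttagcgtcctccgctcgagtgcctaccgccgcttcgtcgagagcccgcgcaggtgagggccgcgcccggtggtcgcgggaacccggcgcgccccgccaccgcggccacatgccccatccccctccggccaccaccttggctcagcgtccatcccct
Blvrb: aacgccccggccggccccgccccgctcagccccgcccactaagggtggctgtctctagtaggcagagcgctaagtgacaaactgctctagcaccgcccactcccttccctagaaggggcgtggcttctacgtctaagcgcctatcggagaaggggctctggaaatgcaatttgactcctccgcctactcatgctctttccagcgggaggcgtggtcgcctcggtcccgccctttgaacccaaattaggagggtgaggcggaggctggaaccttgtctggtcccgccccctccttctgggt
Both strands were searched for TGACNNNGC, the core of the antioxidant response element, for TGANTCA, the AP-1 site, whose letters can overlap that core, for the nuclear respiratory factor 1 site, a pair of GCGC runs with 2 bases between them, and for CACGTG, an E-box. The Alas1 window shown held 2 matches, GCGCGTGCGC and GCGCATGCGC, which begin 224 and 195 bases before its start. Both are letters of the nuclear respiratory factor 1 motif. The second Alas1 window overlaps the first, and there the same 2 matches begin at the start itself and 29 bases after it. The start of that second window is the annotated gene end at 106247954, while the start of the window shown lies inside the gene. The nuclear respiratory factor 1 motif occurred in 6.23% of the 32851 mouse promoter windows of the same length. The antioxidant response element core occurred in 12.4%, the AP-1 site in 7.81% and the E-box in 7.15% of the windows, and these letters were in none of the 4 windows. A match is a run of letters, and binding was not measured.

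All 4 probes gave signal above the middle of their array everywhere. Over the 23 arrays, Alas1 lay between the 93.0th and 96.7th percentile of the probes of its array, Slc48a1 between the 94.9th and 98.6th, Hmox1 between the 92.1st and 98.8th and Blvrb between the 71.2nd and 79.9th. These ranks show distance from the dim probes and do not compare the abundance of the transcripts. Median raw signals per array ran from 107 to 165. Hmox1 varied most, over 2.18 on the log2 scale, against 1.40 for Slc48a1, 1.21 for Blvrb and 0.99 for Alas1. All 4 were dimmer on the third chip: over the 7 groups present on every chip, Hmox1 averaged 12.95, 12.91 and 12.37 on chips 1, 2 and 3, Blvrb 9.43, 9.41 and 8.97, Alas1 12.52, 12.55 and 12.26, and Slc48a1 13.25, 13.24 and 13.03 (normalized log2 intensity).

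Markers of the cell types that handle much haem stood low. Of the macrophage and microglia markers, 8 of 10 were on the array and all 8 averaged below the array median, with Cd163, the haemoglobin scavenger receptor, at the 11.6th percentile. The mean log2 intensity of that list ran from 6.36 to 6.55 over the arrays, and by group it was lowest in Q111 with cystamine (6.39) and highest in Q111 with Boc-DON (6.49). Of the erythroid markers, 7 of 10 were on the array, 6 averaged below the median, and the list mean ran from 6.50 to 6.74. Of the astrocyte markers, 6 of 7 were on the array and 4 averaged below the median (list mean 6.70 to 7.22), while Slc1a3, the glutamate transporter GLAST, was at the 77.2nd percentile. Among 9 of 10 neuronal and striatal markers on the array, 6 averaged below the median (list mean 6.70 to 6.90). The dopamine receptors Drd1 and Drd2 and the striatal factor Bcl11b stood at the 28.3rd, 38.5th and 24.3rd percentiles, below the middle of the array, and Ppp1r1b (DARPP-32), of striatal projection neurons, at the 56.4th. Map2 and Tubb3, of the neuronal cytoskeleton, stood at the 65.6th and 59.9th. Fewer cells of a type and less RNA per cell cannot be told apart in bulk RNA.

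Alas1, the synthesis enzyme, was brightest under cystamine in both lines. In Q111 cells its log2 intensity on chips 1, 2 and 3 was 12.53, 12.51 and 12.20 with ZDON, 12.45, 12.48 and 12.25 with Boc-DON, and 12.81, 12.96 and 12.76 with cystamine, against 12.21, 12.27 and 12.04 in control. In Q7 cells it was 12.48, 12.38 and 12.09 with ZDON, 12.54 and 12.49 with Boc-DON on chips 1 and 2, and 12.74, 12.78 and 12.50 with cystamine, against 12.42, 12.49 and 11.96 in control. The cystamine arrays did not overlap the controls of their line, though in Q7 the gap was narrow, with the lowest cystamine array just above the highest control. Cystamine minus control was 0.67 in Q111 (SE 0.14, 1.59-fold) and 0.38 in Q7 (SE 0.14, 1.30-fold), the Q7 value being 0.22 without the control of chip 3.

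Slc48a1, the endosomal haem carrier, had the tightest cystamine values in Q7. In Q111 cells it read 13.36, 13.39 and 13.07 with ZDON, 13.09, 13.19 and 12.90 with Boc-DON, and 13.80, 13.80 and 13.47 with cystamine, against 13.03, 12.94 and 12.85 in control. In Q7 cells it read 13.00, 13.01 and 13.01 with ZDON, 12.79 and 12.86 with Boc-DON, and 13.55, 13.46 and 13.50 with cystamine, against 12.87, 12.91 and 12.41 in control. Every cystamine and ZDON array lay above every control of its line, while the Boc-DON arrays were interleaved with the controls. Cystamine minus control was 0.75 in Q111 (SE 0.13, 1.68-fold) and 0.78 in Q7 (SE 0.13, 1.71-fold). In Q7 the third control array was low, and without chip 3 the Q7 value was 0.62 (SE 0.09).

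Hmox1, the inducible oxygenase, showed the widest steps between groups. In Q111 cells it read 13.16, 13.25 and 12.29 with ZDON, 12.51, 12.45 and 11.97 with Boc-DON, and 13.98, 13.76 and 13.00 with cystamine, against 12.43, 12.19 and 11.82 in control. In Q7 cells it read 13.04, 13.18 and 12.64 with ZDON, 12.35 and 12.39 with Boc-DON, and 13.30, 13.13 and 13.10 with cystamine, against 12.19, 12.38 and 11.80 in control. Cystamine arrays lay above all controls of their line in both lines, ZDON arrays did so in Q7, and in Q111 the ZDON array of chip 3 lay within the controls. Cystamine minus control was 1.44 in Q111 (SE 0.25, 2.70-fold) and 1.06 in Q7 (SE 0.25, 2.08-fold).

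Blvrb, the reductase of biliverdin and flavins, was the one gene of the 4 whose cystamine and control arrays overlapped in Q7. In Q111 cells it read 9.38, 9.47 and 9.14 with ZDON, 9.25, 9.19 and 8.87 with Boc-DON, and 9.81, 9.84 and 9.51 with cystamine, against 9.17, 9.29 and 8.69 in control. In Q7 cells it read 9.50, 9.29 and 8.80 with ZDON, 9.02 and 9.21 with Boc-DON, and 9.65, 9.58 and 9.12 with cystamine, against 9.28, 9.20 and 8.64 in control. In Q111 the cystamine arrays stood clear of the controls, and in Q7 the chip 3 cystamine array lay below the controls of chips 1 and 2. Cystamine minus control was 0.67 in Q111 (SE 0.20, 1.59-fold) and 0.41 in Q7 (SE 0.20, 1.33-fold), the Q7 value being 0.21 without the control of chip 3.

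**Figure D1:**
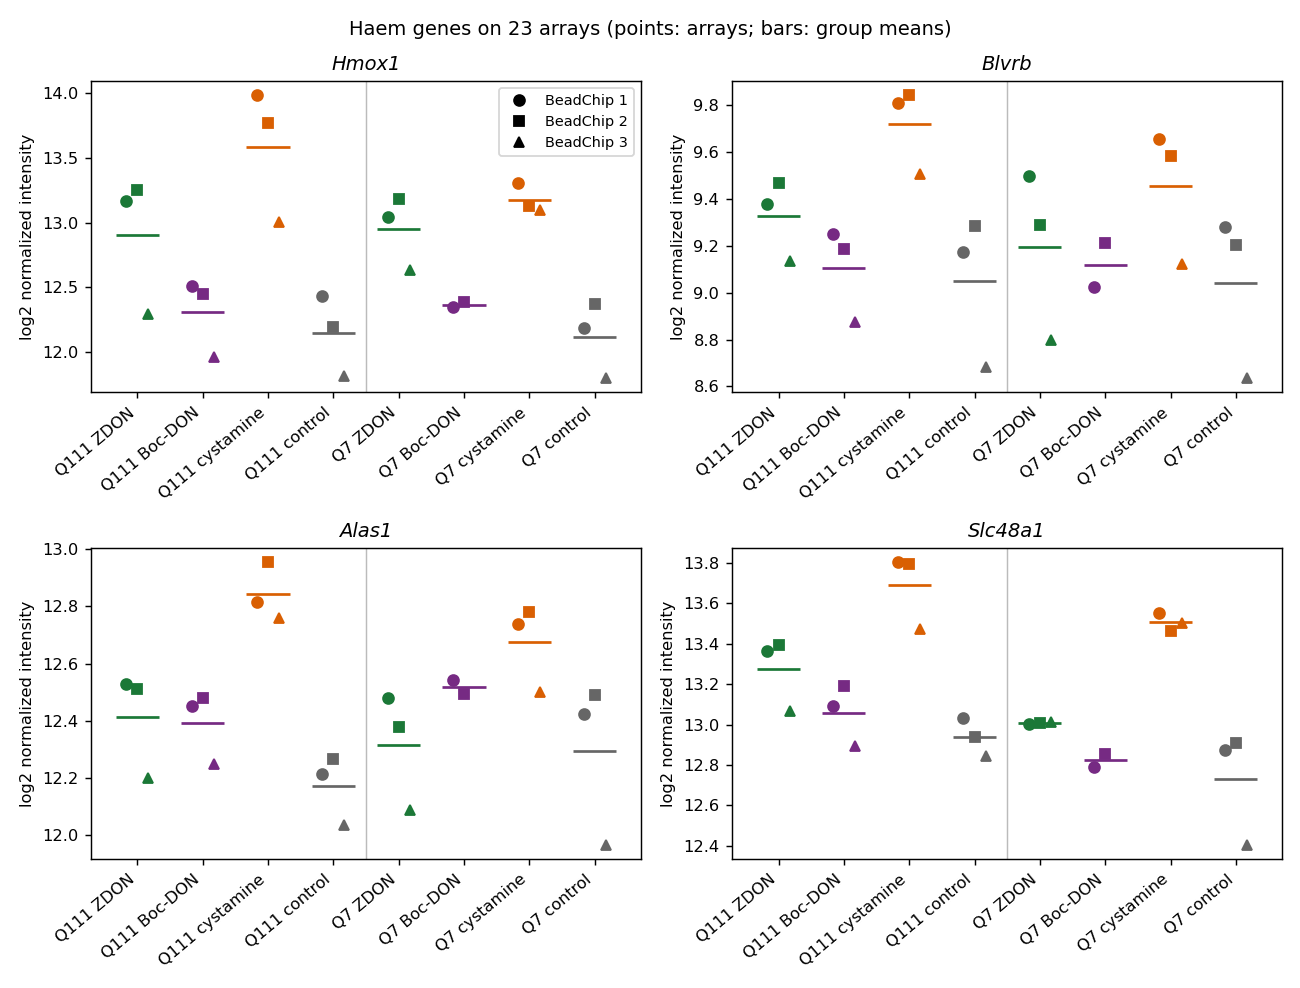
Normalized log2 intensity of the 4 haem genes on each of the 23 arrays (vertical axis) by group (horizontal axis), with the marker shape giving the BeadChip and the bar the group mean. The Hmox1 arrays ran from 11.80 to 13.98, and its chip 3 array was the lowest of the group in each group of 3.

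Each cystamine array was also set against the control on its own chip. The 4 genes were above the control of the same line and chip in 6 of 6 line and chip pairs, as were 5.99% of the 9850 genes tested. For Hmox1 the chip differences were 1.55, 1.57 and 1.18 among Q111 arrays and 1.12, 0.75 and 1.30 among Q7 arrays. Groups did not overlap for 4 of 4 genes in Q111, where 7.09% of all genes tested were higher without overlap, and for 3 of 4 in Q7, where 5.53% were. Because these contrasts are taken to have helped choose the genes, nothing is read from those counts. The cystamine response of Q111 minus that of Q7 was 0.38 for Hmox1 (SE 0.36), 0.26 for Blvrb (SE 0.28), 0.29 for Alas1 (SE 0.20) and -0.03 for Slc48a1 (SE 0.18). Without a block, the Hmox1, Blvrb and Slc48a1 differences were about the size of their standard errors or less. With the chip as a block the differences were the same and the SEs smaller, 0.19, 0.14, 0.12 and 0.14 in that order. The Hmox1, Blvrb and Alas1 differences then exceeded their SEs, and they were not tested. The Slc48a1 figure was -0.19 without chip 2 and 0.20 without chip 3.

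Hmox1 stood higher with ZDON than in control in both lines, by 0.76 in Q111 (SE 0.25, 95% interval 0.23 to 1.28, 1.69-fold) and by 0.83 in Q7 (SE 0.25, 95% interval 0.31 to 1.36, 1.78-fold). In the limma model of all arrays neither passed after Benjamini-Hochberg adjustment over all genes, with adjusted p = 0.457 in Q111 and 0.59 in Q7. None of the 4 genes passed in either line, and 2 of 4 had an unadjusted p under 0.05 in each, as had 6.86% of all genes in Q111 and 5.09% in Q7. The share of all genes called after adjustment was 0% in Q111 and 0.0203% in Q7. These contrasts use the same control arrays as the cystamine contrasts taken to have helped choose the genes, and may have entered the choice themselves. The p-values, overlap counts and chip pairs of ZDON, and those of Boc-DON, are therefore not independent of that choice. With the chip as a block the limma adjusted p of Hmox1 was 0.0182 in Q111 and 0.0121 in Q7, where 0.264% and 0.0508% of all genes passed, 0.122% and 0.0203% as higher.

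The chip differences behind those Hmox1 values were 0.73, 1.06 and 0.47 among Q111 arrays and 0.86, 0.81 and 0.84 among Q7 arrays, all above 0. The blocked call depended on which arrays were kept. Without 1 array it passed in 1 of 6 cases in Q111, the case without the ZDON array of chip 3, with differences from 0.65 to 0.90 and limma adjusted p from 0.00857 to 0.135. In Q7 it passed in 4 of 6 cases and failed without the control of chip 1 or the ZDON array of chip 2, with differences from 0.76 to 0.90 and limma adjusted p from 0.034 to 0.215. Without the whole of chip 1 or of chip 2 neither line passed, though the blocked differences were 0.77 and 0.60 in Q111 (limma adjusted p = 0.734 and 0.377) and 0.82 and 0.85 in Q7 (1 and 0.443). Without chip 3 both passed even with no block, at 0.90 (limma adjusted p = 0.00846) in Q111 and 0.83 (0.00673) in Q7. With the block and median scaling the Q7 value was 0.76 and limma adjusted p 0.0532.

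The other members differed less under ZDON. Slc48a1 was 0.33 above control in Q111 (SE 0.13, 95% interval 0.07 to 0.60) and 0.28 in Q7 (SE 0.13, 0.01 to 0.55), with limma adjusted p of 0.611 and 0.933. In Q7 the chip differences were 0.13, 0.10 and 0.61, and without the control of chip 3 the value was 0.12. Groups did not overlap for 1 of 4 genes in Q111 (Slc48a1), where 7.15% of all genes were higher without overlap, and for 2 of 4 in Q7 (Slc48a1 and Hmox1), where 3.76% were. Blvrb stood 0.28 above control in Q111 (SE 0.20) and 0.15 in Q7 (SE 0.20), the Q111 value being 0.10 without the control of chip 3, and Alas1 stood 0.24 above in Q111 (SE 0.14) and 0.02 in Q7 (SE 0.14, 95% interval -0.27 to 0.31). Hmox1, Blvrb and Slc48a1 were above the control of the same chip in 6 of 6 pairs and Alas1 in 5 of 6, while 3.6% of all genes were so in every pair. The ZDON response did not pass a test of difference between Q111 and Q7 for any of the 4 genes (limma, smallest adjusted p = 1, none at an unadjusted p under 0.05, 0% of all genes called).

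Boc-DON at the same dose and time gave differences from control whose intervals all held 0 in the fit without the block. In Q111 the differences were 0.16 for Hmox1 (95% interval -0.36 to 0.68), 0.06 for Blvrb (-0.36 to 0.47), 0.22 for Alas1 (-0.07 to 0.51) and 0.12 for Slc48a1 (-0.15 to 0.39). In Q7, on 2 arrays, they were 0.25 for Hmox1 (-0.34 to 0.83), 0.08 for Blvrb (-0.39 to 0.54), 0.22 for Alas1 (-0.10 to 0.55) and 0.09 for Slc48a1 (-0.21 to 0.39). The Q7 group has no array on the dimmer chip 3. With the block its differences were 0.06 for Hmox1 (0.16 and 0.01 on chips 1 and 2), -0.08 for Blvrb, 0.13 for Alas1 and 0.02 for Slc48a1. None of 4 passed in limma in either line, with or without the block, and none had an unadjusted p under 0.05 without it, while 0.0609% of all genes in Q111 and 0.0203% in Q7 were called, or 0.812% and 0.264% with the block. With the block 1 of 4 had an unadjusted p under 0.05 in Q111 and 0 of 4 in Q7, and no share of all genes is given for that. The 1 was Alas1, at 0.22 (SE 0.09, limma adjusted p = 0.268). Hmox1 and Alas1 were at or above the control of the same chip in 5 of 5 pairs, and Blvrb and Slc48a1 in 3 of 5, while 11.1% of all genes were above it in every pair. No difference between the lines in the response passed (limma, smallest adjusted p = 0.999, none at an unadjusted p under 0.05, 0% of all genes called).

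ZDON and Boc-DON were the compounds that could be set against each other, since dose and time matched. The labels name both as DON compounds, with a Z or a Boc prefix, and give no structure. Over 8 comparisons of the 4 genes in the 2 lines, adjusted over all genes in each line, none passed without the block, and 0% of all genes did. Hmox1 was higher with ZDON than with Boc-DON by 0.60 in Q111 (SE 0.25, 95% interval 0.07 to 1.12, limma adjusted p = 1) and by 0.59 in Q7 (SE 0.28, 0.00 to 1.17, limma adjusted p = 0.761). With the chip as a block the Q7 difference was 0.77 (SE 0.15, limma adjusted p = 0.0428, where 0.183% of all genes passed), and in Q111 limma gave an adjusted p of 0.167, where 0.0609% did. In Q7 the blocked call was lost in each of 5 cases without 1 array, with differences from 0.73 to 0.84 (limma adjusted p from 0.0808 to 0.662). Without chip 3 and with no block the Hmox1 difference passed in both lines, at 0.73 in Q111 (limma adjusted p = 0.033) and 0.74 in Q7 (0.00856).

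For the other genes the intervals of the ZDON minus Boc-DON differences all held 0 in the fit without the block. Slc48a1 differed by 0.21 in Q111 (95% interval -0.05 to 0.48) and 0.19 in Q7 (-0.11 to 0.49), and Blvrb by 0.22 (-0.20 to 0.64) and 0.08 (-0.39 to 0.54). Alas1 differed by 0.02 in Q111 (-0.27 to 0.31) and by -0.20 in Q7 (-0.53 to 0.12), where ZDON was the lower. With the block, which allows for the missing chip 3 array, the Q7 differences were 0.26 for Slc48a1 (SE 0.11), 0.23 for Blvrb (SE 0.11, 0.48 and 0.08 on chips 1 and 2) and -0.11 for Alas1 (SE 0.10). In Q111 the blocked differences were 0.21 for Slc48a1 and 0.22 for Blvrb (SE 0.10 each). None of these passed in limma (adjusted p = 0.507, 0.549 and 0.788 in Q7, 0.826 and 0.81 in Q111). The intervals and SEs do not show that the compounds act alike on those genes. Cystamine, at 250 µM against 50 µM, was not set against either. All compound effects of a line share its control arrays, among them the cystamine effects taken to have helped choose the genes.

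**Figure D2:**
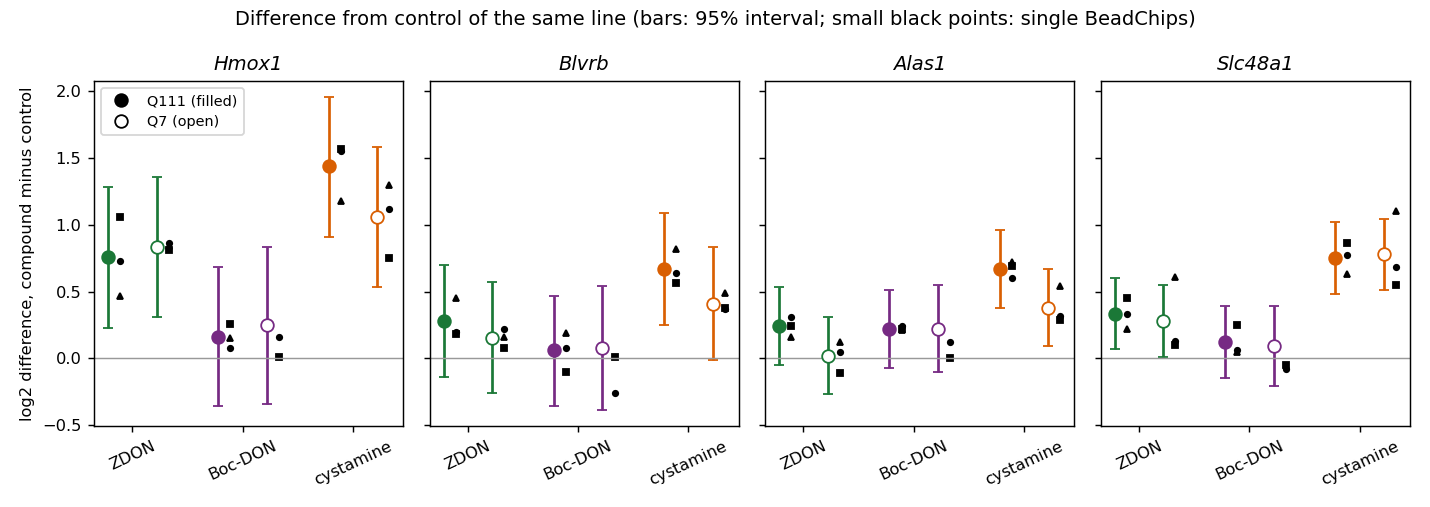
Difference from the control of the same line in log2 intensity for each compound and haem gene, with filled markers for Q111, open markers for Q7, bars for the 95% interval of the limma fit and small black points for single chips. Hmox1 with ZDON lay at 0.76 in Q111 and 0.83 in Q7, and the cystamine points are a description because they are taken to have helped choose the genes.

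No difference in the 4 genes was detectable between Q111 and Q7 control cells. Q111 minus Q7 was 0.03 for Hmox1 (95% interval -0.50 to 0.55), 0.01 for Blvrb (-0.41 to 0.43), -0.12 for Alas1 (-0.41 to 0.17) and 0.21 for Slc48a1 (-0.06 to 0.48), which was 0.05 without the Q7 control of chip 3. None of 4 passed in limma (smallest adjusted p = 0.612, none at an unadjusted p under 0.05), while 1.55% of all genes did, or 3.26% with the block, under which none of the 4 passed either. With the block the Slc48a1 difference was 0.21 (SE 0.10, limma adjusted p = 0.326). For Slc48a1, Q111 minus Q7 was 0.27 under ZDON (SE 0.13) and 0.24 under Boc-DON (SE 0.14), and neither passed (limma adjusted p = 0.549 and 0.64).

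Ranked by group mean, the 8 groups shared only the first 2 places, those of the cystamine groups, across the 4 genes, and the later places differed by gene. The genes are taken to have been chosen in part for higher levels under cystamine, so nothing is read from the places of the cystamine groups. Q111 with cystamine came first and Q7 with cystamine second for all 4, with Hmox1 at 13.58 ± 0.51 and 13.18 ± 0.11, Alas1 at 12.84 ± 0.10 and 12.67 ± 0.15, Slc48a1 at 13.69 ± 0.19 and 13.51 ± 0.05, and Blvrb at 9.72 ± 0.19 and 9.45 ± 0.29 (log2, SD, n = 3 each). For Hmox1 the next were Q7 with ZDON (12.95 ± 0.28) and Q111 with ZDON (12.90 ± 0.53), followed by both Boc-DON groups and both controls, the last being Q111 (12.15 ± 0.31) and Q7 (12.12 ± 0.29). In that order the gap between Q111 with ZDON and Q7 with Boc-DON, 0.54, was the one larger than the wider SD of its pair, and its arrays still overlapped. Q7 with Boc-DON has no chip 3 array, and on the chips they share Q111 with ZDON read 13.16 and 13.25, against 12.35 and 12.39 in Q7 with Boc-DON, so the place of that group in each order is not like for like. For Blvrb no step between neighbours exceeded the wider SD. For Alas1 the first 2 steps, 0.17 and 0.16, did so by little, and their arrays overlapped. For Slc48a1 the steps from Q7 with cystamine to Q111 with ZDON (0.23), from Q111 with ZDON to Q111 with Boc-DON (0.21) and from Q111 control to Q7 with Boc-DON (0.12) did. The first of these steps lies between unlike lines, compounds and doses, and nothing is read from it.

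At most 3 further genes of the cycle were called in any comparison of all arrays, with or without the block. Lists of 51 further genes of haem synthesis, transport and breakdown, iron handling and their regulators had 42 measured members, and since the 4 genes were taken out of those lists for their values, the remaining counts describe what was left. In limma, cystamine called 1 of 42 in Q111, where 0.64% of all genes passed, and 1 of 42 in Q7, where 0.406% did. The median difference over the 42 was 0.021 in Q111, against -0.007 over all genes, and 0.051 in Q7, against -0.008. With the block it called 3 in Q111, where 1.73% of all genes passed, and 2 in Q7, where 0.944% did. ZDON and Boc-DON called none of 42 in either line (limma, 4 of 42 at an unadjusted p under 0.05 with ZDON in Q111 and 2 in each other case, and none with the block). Those are 9.52% and 4.76% of the list, while 6.86% and 5.09% of all genes had such a p with ZDON in Q111 and Q7, and 9.16% and 7.54% with Boc-DON. Control Q111 against control Q7 also called none, with 5 of 42 (11.9%) at an unadjusted p under 0.05, where 10.5% of all genes were, and 3 of 42 with the block, where 3.26% of all genes passed.

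Of the remaining synthesis genes, 5 of 8 were measured and none was called under cystamine. Alad, the enzyme after ALAS1, stood at -0.11 in Q111 and -0.05 in Q7 (SE 0.09 each), and Fech, which inserts the iron, at 0.10 and 0.09 (SE 0.14 each). Alas1 itself stood at 0.67 and 0.38 in the same contrasts. Alas2, the erythroid form, and Cpox did not pass the filter on dim probes. The synthesis list's median was 0.005 in Q111 and -0.054 in Q7.

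Of the remaining transport genes, 10 of 13 were measured, and Abcb6, a porphyrin transporter, was called. It read 10.33, 10.08 and 10.23 in Q111 with cystamine, against 9.74, 9.54 and 9.67 in Q111 control, with no overlap. It rose by 0.57 (SE 0.12, limma adjusted p = 0.0318) in Q111, by 0.59, 0.54 and 0.57 on the 3 chips, and stood at 0.31 in Q7 (SE 0.12, limma adjusted p = 0.488), while the test of that difference between the lines gave 0.26 (SE 0.18, limma adjusted p = 1). Without 1 array the call held in 1 of 6 cases (0.51 to 0.63, limma adjusted p from 0.0411 to 0.195), being kept without the cystamine array of chip 2, and under median scaling the difference was 0.38 (limma adjusted p = 0.248). With the Q111 cystamine and control arrays alone the limma adjusted p was 0.187. Flvcr1, the haem exporter, did not pass the filter on dim probes.

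Of the remaining breakdown genes, 2 of 2 were measured and neither was called under cystamine. Hmox2, the constitutive oxygenase, stood at -0.35 in Q111 with cystamine (SE 0.15, limma adjusted p = 0.45) and at -0.07 in Q7 (SE 0.15). Blvra, the main biliverdin reductase of adult tissue, stood at -0.12 in Q111 and -0.16 in Q7 (SE 0.11 each). Neither was called in any comparison, with or without the block.

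Iron leaves broken haem and is stored in ferritin or exported, and 14 of 16 iron genes were measured. The ferritin chains Fth1 and Ftl1 stood at -0.01 and 0.07 in Q111 and at 0.15 and 0.08 in Q7 under cystamine (SE 0.11 and 0.10), and neither was called. Slc40a1, the iron exporter ferroportin, read 10.20, 10.12 and 8.74 in Q111 with cystamine, against 8.72, 8.52 and 8.48 in Q111 control. The difference, 1.11 (SE 0.28, limma adjusted p = 0.0795), lay mostly on chips 1 and 2 (1.47, 1.60 and 0.26 by chip), passed with the block (limma adjusted p = 0.00754), and was 1.58 without the cystamine array of chip 3 (limma adjusted p = 0.000523). In Q7 it was 0.64 (SE 0.28, limma adjusted p = 0.563). Tfrc, the transferrin receptor, and Hebp1, a haem-binding protein of the transport list, were lower in Q111 control than in Q7 control by the blocked fit, at -0.40 (limma adjusted p = 0.0479 with the block, 0.347 without) and -0.43 (0.0373 with the block, 0.46 without).

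Among the regulators, 11 of 12 were measured. Nfe2l2 stood at 0.02 in Q111 and 0.19 in Q7 under cystamine (SE 0.15 each), and Bach1 at 0.15 and 0.23 (SE 0.13 each), with no call. Ppargc1a read 8.32, 8.11 and 7.69 in Q7 with cystamine, against 8.91, 8.57 and 8.77 in Q7 control, and fell by 0.71 on the log2 scale (SE 0.15, limma adjusted p = 0.0427). That call was lost without any 1 of 4 of the 6 arrays (-0.85 to -0.53, limma adjusted p from 0.0234 to 0.265), those of the control on chips 1 and 3 and of cystamine on chips 2 and 3. It was also lost under median scaling, at -0.86 (limma adjusted p = 0.0776), with no filter (0.0527) and with the compared arrays alone (0.455), and in Q111 the difference was -0.11 (SE 0.15). Maff, a small MAF protein that pairs with NRF2 and BACH1, read 10.05, 9.91 and 10.11 in Q111 with cystamine, against 9.50, 9.49 and 9.20 in Q111 control. It stood at 0.63 in Q111 (limma adjusted p = 0.0702, or 0.0248 with the block) and at 0.62 in Q7 (0.102, or 0.0407 with the block). Mafk, its relative, stood at -0.60 in Q111 control against Q7 control (limma adjusted p = 0.0707, or 0.0489 with the block).

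**Figure D3:**
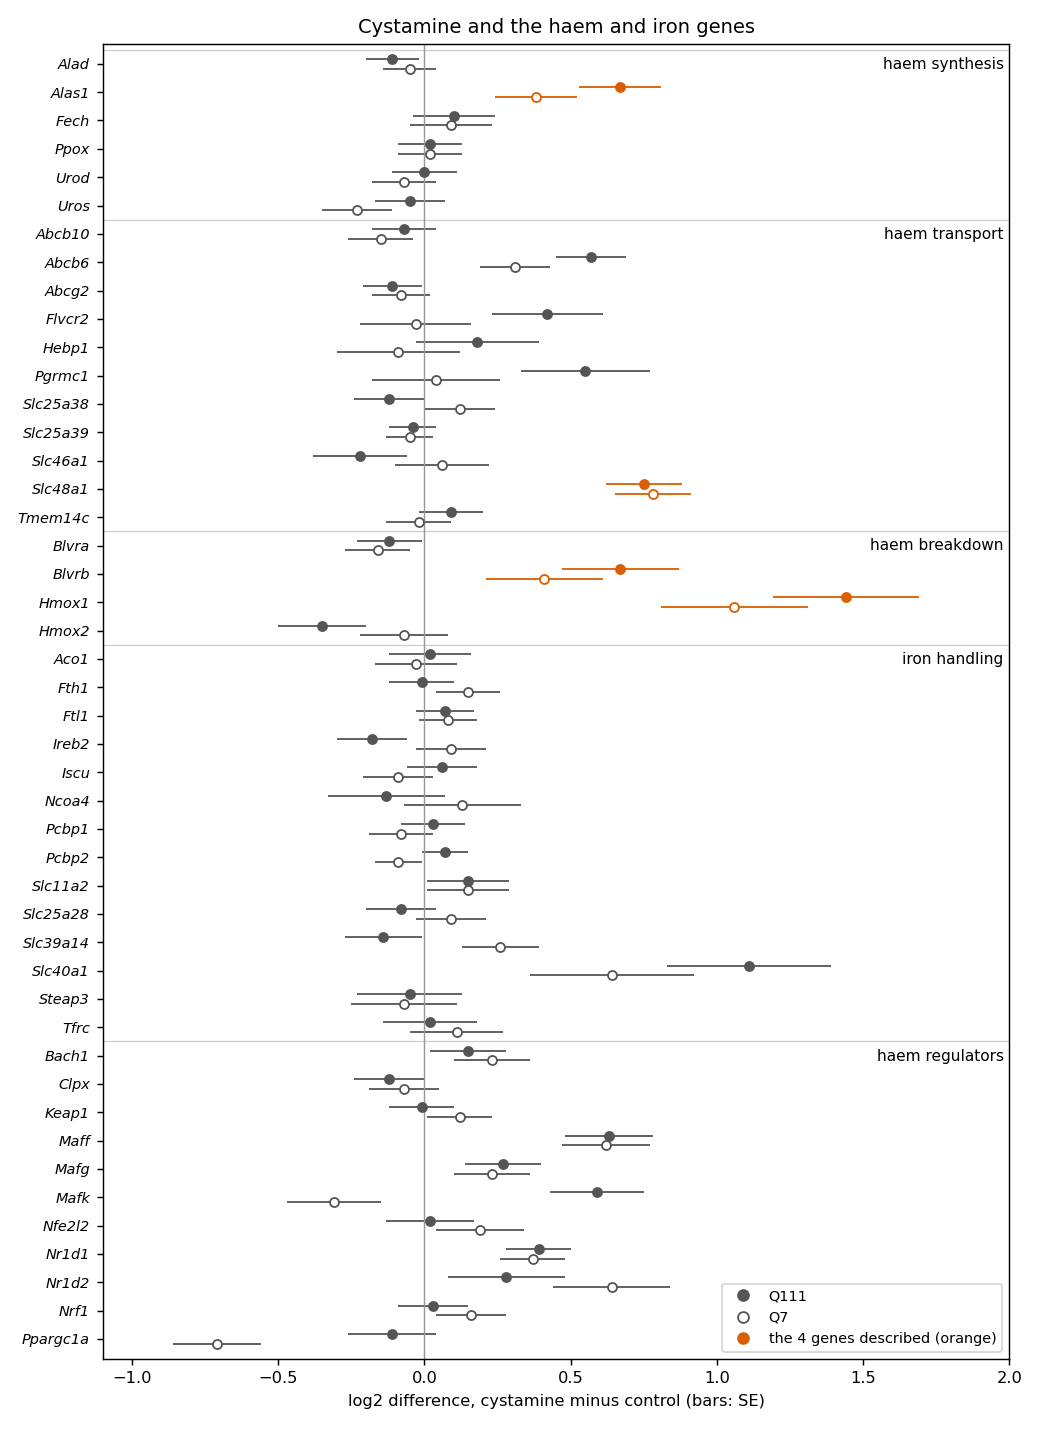
Cystamine minus control in log2 intensity for the 46 measured genes of haem synthesis, transport and breakdown, iron handling and regulation, with filled markers for Q111, open markers for Q7, bars for the SE and orange for Alas1, Slc48a1, Hmox1 and Blvrb. The median of the 42 other genes was 0.021 in Q111 and 0.051 in Q7, while Hmox1 stood at 1.44 and 1.06.

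Across the 23 arrays, with chip means removed, the 4 genes correlated with one another at Pearson r from 0.756, for Hmox1 and Alas1, to 0.89, for Hmox1 and Slc48a1. The points share their groups, chips and the cystamine difference taken to have helped choose the genes, so the values describe the arrays. The genes most like Slc48a1 were Srxn1 (r = 0.956), which reduces oxidised peroxiredoxins, Slc7a11 (0.933), the cystine importer, and Gstm1 (0.899), a glutathione transferase. For Alas1 they were the metallothionein Mt2 (0.897), the quinone reductase Nqo1 (0.885) and Taldo1 (0.881), of the pentose phosphate pathway. For Hmox1 they were Cebpb (0.92), a transcription factor, the cell cycle inhibitor Cdkn1a (0.917) and Ugt1a6a (0.899), a glucuronosyltransferase. For Blvrb they were Cds1 (0.908), of phospholipid synthesis, Gstm1 (0.889) and Slc48a1 itself (0.878). With chip means left in, Hmox1 kept Cebpb and Cdkn1a, Slc48a1 kept Srxn1 and Slc7a11, Alas1 kept Nqo1 and Taldo1, and Blvrb kept Gstm1 among their 3.

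Among the genes nearest to Hmox1, Cdkn1a stood at 0.79 in Q111 and 0.58 in Q7 with ZDON (SE 0.27 each), 0.56 and 0.19 with Boc-DON (SE 0.27 and 0.30), and 1.09 and 0.82 with cystamine (SE 0.27 each). Cebpb stood at 0.11 in Q111 and 0.29 in Q7 with ZDON, and at 0.55 and 0.33 with cystamine (SE 0.17 each). Cdkn1a was singled out from the nearest genes after its values were seen, and its values carry no test here.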

How the data were processed

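Total RNA of 23 samples of the lines Q111 and Q7 was measured on mouse bead arrays from Illumina. The starting point was the deposited table of probe intensity values without normalization, which the authors had summarised in BeadStudio (no version stated), per the submitters' processing notes. No source used here says if background had been subtracted. The deposited log2 values of the authors matched quantile-normalized log2 intensities to within 5e-09 and served as an alternative. Detection p-values and control probes were not used here, and 1 column without a sample in the labels was left out. The number of arrays limits the precision.

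In R 4.3.3 with limma 3.58.1, background was corrected by normexp with an offset of 50, followed by quantile normalization and log2. A single symbol was attached to 19852 of 24611 probes, no symbol to 4759 and several to 0. The 15049 probes that exceeded the array median on 2 or more arrays were kept, 12505 of them with a symbol, and the brightest probe stood for its gene, so 9850 genes were tested. All 4 haem genes passed this filter. A limma model with 1 mean per group (8 groups, 15 residual degrees of freedom) was fitted to all arrays, with Benjamini-Hochberg adjustment over all genes of a comparison and a threshold of 0.05. Intervals are 95% intervals of the fit. The scripts were tested on simulated data.

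Replicate numbers follow the BeadChip in the sample descriptions, so same-numbered arrays share a chip. Across genes, residuals of same-numbered arrays had a median correlation of 0.208, positive in 72 of 77 pairs, while arrays with different numbers had -0.112, positive in 44 of 154. Residuals from a group mean cancel out within the group. A negative value for different numbers therefore follows from a positive one for the same number, and is no separate observation. A fit with the replicate number as a block (13 residual degrees of freedom) is quoted where it changed a call.

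The 4 genes, the pathway lists and the markers were chosen with earlier results of these data known. Named were the 4 genes, Hmox2, Blvra, Alad, Fech, Flvcr1, Bach1, Nfe2l2, Ppargc1a, Fth1 and Ftl1, every other listed gene past the threshold with or without the block, and the 3 genes most correlated with each of the 4. Alternatives were the block, leaving out the filter or the background correction, scaling by medians, the deposited values, the compared groups alone, all kept probes, and leaving out each array or chip. The block joined with another of these was chosen after seeing the data. Promoter windows were read from RefSeq tables with Python 3.11.15, and figures were drawn with matplotlib 3.10.9.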

Additional observations from a re-analysis of the deposited data

How the results depend on the processing

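Of 28 comparisons of the 4 genes tested, 0 passed without the block, and under alternatives 39 of 660 values turned their sign, 0 of them past the threshold in either fit. With the replicate block, 3 haem and iron genes passed between the control arrays of the lines (Hebp1, Mafk and Tfrc), and Hmox1 passed for ZDON at 0.76 in Q111 and 0.83 in Q7 and against Boc-DON at 0.77 in Q7, as the 1 gene in each. It did so for ZDON in Q111 and Q7 with the block and no filter, no background correction, the deposited values or all probes (0.76 and 0.83), in Q111 also with median scaling (0.76), and against Boc-DON in Q7 with no background correction or the deposited values (0.77) or median scaling (0.83), but not with no filter or all probes. Without chip 3, Hmox1 was 0.90 in Q111 and 0.83 in Q7 with ZDON, with and without the block, and 0.73 in Q111 (without the block) and 0.74 in Q7 (with and without) against Boc-DON. The counts were then 2 between the lines (Hebp1 and Slc40a1), 1 and 2 for ZDON in Q111 and Q7, and 1 in Q111 and 2 in Q7 (3 with the block, with Ppargc1a) against Boc-DON. Sign changes were -0.08 (without chip 1) for Hmox1 and -0.03 and -0.01 (without chip 2 and chip 3) for Blvrb between the lines, and for Alas1 with ZDON in Q7 -0.04 (median scaling, with and without the block) and -0.03 (without chip 3, with and without the block). Blvrb with Boc-DON in Q111 was -0.01 (median scaling, and without chip 3) and in Q7 -0.08 (replicate block), -0.04 (median scaling) and -0.13 (without chip 3). Slc48a1 with Boc-DON in Q7 was -0.02 (median scaling) and -0.07 (without chip 3). Against Boc-DON, Alas1 with ZDON was -0.01 in Q111 (without chip 1, with and without the block) and Blvrb -0.17 in Q7 (without chip 1). For cystamine, Slc48a1 was 0.62 in Q7 without chip 3, and its response difference -0.19 and 0.20 without chip 2 and chip 3. Among the other haem genes cystamine called 3 in Q111 and 2 in Q7 with the block, 0 in both with median scaling, the compared groups alone, or without chip 1 or chip 2, 2 in Q111 without chip 3, and 0 in Q7 with no filter. Leaving out 1 array, with and without the block, gave 0 to 1 genes for ZDON in each line, with Hmox1 at 0.58 to 1.06 in Q111 and 0.67 to 0.99 in Q7, and 0 to 2 other haem genes for cystamine in each line. It gave -0.13 to 0.19 for Hmox1 and -0.19 to 0.19 for Blvrb between the lines, -0.05 to 0.35 for Blvrb and -0.14 to 0.14 for Alas1 with ZDON in Q7, 0 to 0.33 for Hmox1 and -0.13 to 0.18 for Blvrb with Boc-DON in Q111, -0.13 to 0.20 for Blvrb and -0.07 to 0.18 for Slc48a1 with Boc-DON in Q7, -0.06 to 0.12 for Alas1 in Q111 and -0.08 to 0.34 for Blvrb in Q7 between ZDON and Boc-DON, and 0.61 to 0.87 and -0.12 to 0.14 for Slc48a1 with cystamine in Q7 and in the response difference. Over all genes the block raised the calls to 321, against 153, between the lines, and to 170, against 63, and 93, against 40, for cystamine in Q111 and Q7, where median scaling gave 37 and 14. With ZDON the block gave 26 and 5, against 0 and 2, and with Boc-DON 80 and 26, against 6 and 2. It changed no call of Alas1, Slc48a1 or Blvrb. Fewer arrays and genes enter some of these fits, and the cause of the changes was not tested.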
